A study of Homo sapiens with 2 samples.

Results

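NF-kappaB is a family of dimeric transcription factors. Its 5 subunits and 5 proteins grouped here as inhibitors were followed in FaDu cells with and without introduced GLUT4. The subunits are NFKB1, NFKB2, RELA, RELB and REL, and the inhibitors are NFKBIA, NFKBIE, NFKBIZ, TNFAIP3 and BCL3. Inhibitor is the name of the group, and not each of its proteins holds the dimers back. Their values come from all probe sets of the array whose platform annotation names only 1 of these 10 genes. This rule for probe sets uses no measured value, whereas the 10 genes were chosen with earlier results of these data known. The array measured 19775 named genes. The rule gave 19 of its 54675 probe sets, 12 for the subunits and 7 for the inhibitors. They cover 9 of the 10 genes. The 2 probe sets that name BCL3 also name MIR8085, so no value is given for BCL3.

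In resting cells the dimers are held in the cytoplasm by IkappaB proteins, and a kinase complex that responds to TNF, interleukin-1 or microbial products marks these inhibitors for destruction and frees the dimers. RELA, RELB and REL carry domains that activate transcription, whereas NFKB1 and NFKB2 are made as long precursors that themselves act as inhibitors until they are cut. Several genes of the system, such as NFKBIA, TNFAIP3 and NFKB2, are themselves induced by NF-kappaB and act as feedback. In squamous epithelium the pathway is known for driving neutrophil-attracting chemokines and survival genes. Much of its regulation acts on protein location and stability, which arrays of mRNA do not measure.

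FaDu is a squamous carcinoma line from the human pharynx. The GLUT4 group carried a lentivirally delivered GLUT4 sequence and the vector group the control vector, and the cells of both groups had undergone 2 weeks of puromycin selection. The methods call them stable clones, and each group gave 1 Affymetrix U133 Plus 2.0 array. With 1 array per group, no difference has a replicate check, no test was possible, and GLUT4 cannot be told apart from any other difference between these cell populations.

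The values are linear intensities, whose medians over all probe sets were 39.7 (vector) and 39.1 (GLUT4). SLC2A4, which encodes GLUT4, read 28.3 and 32.6, and whether its probe set lies within the introduced sequence was not determined, so it does not check the labels. All 7 squamous markers analysed here were brighter than the median probe set, among them KRT5 at 11024 and 13093. Of these, KRT14 was more than 1.5-fold higher with GLUT4 (1963 and 3985) and the other 6 were within 1.5-fold, with CDH1 the lowest at -0.54 on the log2 scale. The summed intensity of 9 leukocyte markers was 520.4 and 395.3, and 4 of them were brighter than the median probe set. PTPRC, LYZ and TYROBP were dimmer than it, at 8.30 and 8.14, 13.5 and 14.9, and 12.9 and 15.7. Of the 9 leukocyte markers, CD14 was more than 1.5-fold lower (251 and 143) and 8 were within 1.5-fold, among them ITGB2 at 75.0 and 56.0. For 7 fibroblast markers the sum was 900.5 and 1522, and 5 of them were brighter than the median probe set. DCN (482 and 1050) and LUM (38.5 and 79.9) were more than 1.5-fold higher with GLUT4 and 5 were within 1.5-fold. For 6 endothelial markers it was 296 and 209, and 3 of them were brighter than the median probe set. PECAM1 was more than 1.5-fold lower (141 and 48.2) and 5 were within 1.5-fold. Both samples are cultures of the FaDu line, and whether they held any other cells was not tested. In bulk RNA, fewer cells of a type and less RNA per cell cannot be told apart.

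Promoter sequences show which members hold NF-kappaB's own recognition motif at their start sites. RefSeq promoter windows of GRCh38.p14, from 250 bases before to 50 bases after a start site, matched 8 of the 10 genes with 13 windows in all. The kappaB consensus, a motif of 10 bases searched on both strands, with overlapping matches joined to 1 stretch, lay in 9 of the 13 windows (69.2%), against 11.3% of all 35116 windows. Counted by gene, 7 of 8 members (87.5%) held a match in at least 1 window, against 13.3% of 27305 genes. Neither RELA window held one, and that of BCL3 did not lie wholly before the start site. The matches before the start are printed in capitals with up to 15 flanking bases, each read 5′ to 3′ on the strand of its gene, with windows of a gene counted in the direction of transcription. A match is a description of the letters and not a bound site.
NFKB1, chr4:102501295-102501334, plus strand: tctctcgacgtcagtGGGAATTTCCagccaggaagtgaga
REL, chr2:60881512-60881552, plus strand: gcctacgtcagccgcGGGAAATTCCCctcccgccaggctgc
NFKB2 second window, chr10:102394456-102394524, plus strand: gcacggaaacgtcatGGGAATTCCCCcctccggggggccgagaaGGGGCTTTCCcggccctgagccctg
NFKB2 last window, chr10:102395514-102395553, plus strand: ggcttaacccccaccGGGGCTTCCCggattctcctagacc
NFKB2 last window, chr10:102395669-102395704, plus strand: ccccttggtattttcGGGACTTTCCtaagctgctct
NFKBIA, chr14:35404806-35404845, minus strand: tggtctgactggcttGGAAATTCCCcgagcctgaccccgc
TNFAIP3, chr6:137867177-137867228, plus strand: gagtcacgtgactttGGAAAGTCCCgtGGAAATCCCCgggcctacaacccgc
NFKBIZ first window, chr3:101827752-101827791, plus strand: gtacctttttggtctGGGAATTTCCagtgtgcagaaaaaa
NFKBIZ second window, chr3:101849264-101849299, plus strand: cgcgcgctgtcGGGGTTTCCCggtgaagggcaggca

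The stretches of TNFAIP3 began 67 and 55 bases before the start site, that of NFKBIA 81, that of NFKB1 49 and that of REL 47. In the second window of NFKB2 they began 107 and 78 bases before the start and in the last window 176 and 21. The NFKBIZ stretches lay farther off, at 223 and 239 bases. NFKB1 and the first window of NFKBIZ held the same 10 letters, GGGAATTTCC.

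As a group, the subunits and inhibitors had nearly equal mRNA levels on both arrays. Of 9 genes measured, each taken at its brightest probe set (the main probe set), 1 was more than 1.5-fold higher with GLUT4, NFKB2, and none was more than 1.5-fold lower. Among all 19775 genes, 1.84% were higher and 1.54% lower by this threshold of the methods, and the 1 of 9 here rests on NFKB2 alone. The median log2 difference, GLUT4 minus vector, was 0.08 over the 9 genes, against -0.015 over all genes. With 8 members above 0, NFKBIE was below, joined by NFKBIA after quantile normalization or loess. Of all 19775 genes, 9452 were above 0 and 10322 below. Of the 19 probe sets, 2 were more than 1.5-fold higher, 1 of NFKB2 and 1 of NFKBIZ, and none was lower, where 1.96% and 1.38% of the 41097 probe sets naming 1 gene were. Probe sets of 1 gene share the RNA and are not replicates.

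As a measure of technical spread, the log2 differences of the brightest and the next probe set of 10523 genes had an SD of 0.29 between them, which is 0.20 for 1 probe set. This SD does not cover variation between cultures. By it, 7 of the 9 members lay within 0.20 of no difference on the main probe set, and NFKB2 and NFKBIZ lay beyond it. For pairs in the brightest of 3 equal classes the SD for 1 probe set was 0.16, and TNFAIP3, a bright gene at 0.18, lay beyond that. The middle 95% of all genes ran from -0.49 to 0.52, and of the members only NFKB2 and NFKBIZ lay above 0.20, NFKB2 outside that range and NFKBIZ marginally outside its upper end.

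**Figure D1:**
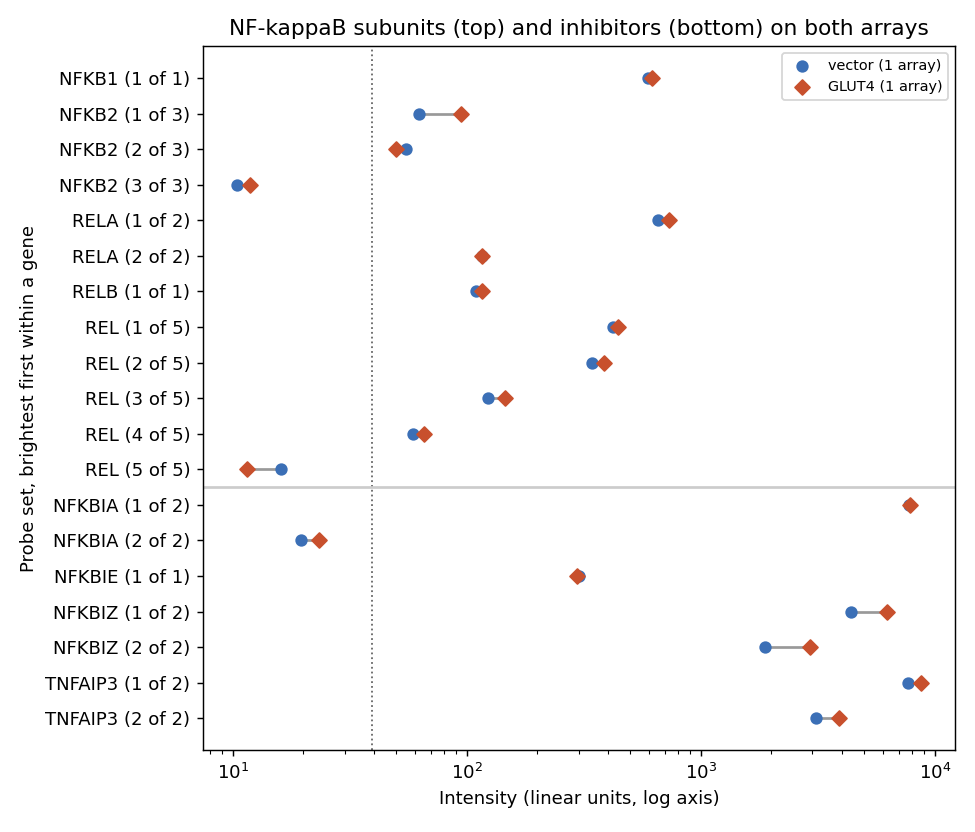
Intensity on the vector array (circles) and the GLUT4 array (diamonds) for each of the 19 probe sets, on a log axis, with subunits above the grey line and inhibitors below it; the dotted line is the median of all probe sets, 39.3. The widest gaps are those of the first NFKB2 probe set, both NFKBIZ probe sets and the dimmest REL probe set, which runs the other way.

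Among the subunits, RELA, the activating partner of the classical dimer, read 655 in the vector control and 728 with GLUT4, a log2 difference of 0.15. Its dimmer probe set read 116 and 117, a log2 difference of 0.004. Both arrays thus gave RELA nearly the same level. NFKB1, whose cut form is the DNA-binding partner in the same dimer, read 592 and 615, a log2 difference of 0.05 on its 1 probe set. Of all genes, 77.0% had a larger absolute difference than NFKB1 and 45.2% a larger one than RELA.

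RELB, which pairs with the cut form of NFKB2 in the noncanonical pathway, read 109 and 116, a log2 difference of 0.08 on its 1 probe set. REL, a subunit best known from lymphocytes, had 5 probe sets, of which 4 were slightly higher with GLUT4 and 1 lower. The brightest read 421 and 443, a log2 difference of 0.07. The next 3 read 342 and 386, 124 and 146, and 58.9 and 65.3, with log2 differences of 0.17, 0.23 and 0.15. The dimmest, below the median of all probe sets, went the other way from 16.1 to 11.5, a log2 difference of -0.49. Averaged over all 5, the difference was 0.03. No REL probe set was past 1.5-fold.

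NFKB2, the precursor of the noncanonical subunit, was the 1 member past 1.5-fold on its main probe set, and its probe sets disagreed. The brightest read 62.2 in the vector control and 94.0 with GLUT4, 1.51-fold higher, a log2 difference of 0.60. The next, of similar brightness, read 54.9 and 49.8, 1.10-fold lower, a log2 difference of -0.14. The dimmest read 10.4 and 11.8, a log2 difference of 0.18. The gap of 0.74 between the highest and the lowest was larger than 0.29, the SD between paired probe sets. Averaged over the 3 probe sets the log2 difference was 0.21, within 1.5-fold, and after adding 32 to all intensities (the offset) it was 0.42, also within 1.5-fold. Of all genes, 3.25% had a larger absolute difference than the main NFKB2 probe set, and 5.36% of those in the same of 3 equal classes of signal.

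**Figure D2:**
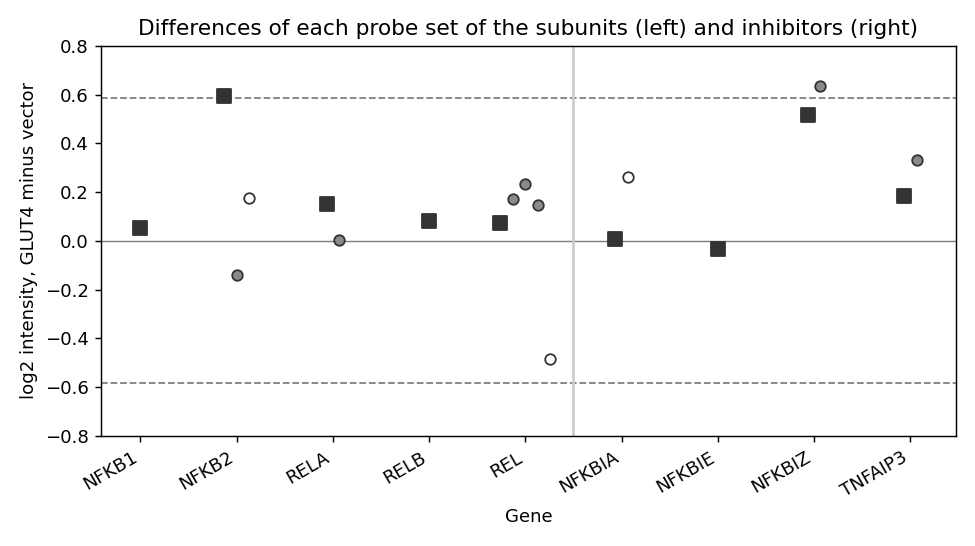
Log2 difference, GLUT4 minus vector, for each probe set of the 9 genes, subunits left and inhibitors right of the grey line. Squares are main probe sets, circles the others, open symbols lie below the median signal, and dashed lines mark 1.5-fold; 1 NFKB2 and 1 NFKBIZ probe set lie above the upper line, and NFKB2 and REL have probe sets on both sides of 0.

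Among the inhibitors, NFKBIZ, a nuclear IkappaB protein that binds dimers on chromatin and is needed for a set of late inflammatory genes such as IL6, differed the most, and its probe sets ran together. The brighter one read 4388 in the vector control and 6276 with GLUT4, 1.43-fold higher, a log2 difference of 0.52. The other read 1883 and 2928, 1.55-fold higher, a log2 difference of 0.64. The difference was thus just under 1.5-fold on one and just over it on the other. Their gap of 0.12 was smaller than 0.29, and both lay far above the median signal. Averaged, the log2 difference was 0.58, just under the threshold of 0.585. Of all genes, 4.67% had a larger absolute difference than the main NFKBIZ probe set, and 4.41% of those in the same signal class. It lay between 0.50 and 0.58 under every alternative that gives it a value.

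TNFAIP3, the ubiquitin-editing enzyme A20 that switches signalling off upstream of the kinases, read 7699 and 8753 on its brighter probe set, a log2 difference of 0.18. On the other it read 3093 and 3895, a log2 difference of 0.33. Both were higher with GLUT4 and both were within 1.5-fold. Of all genes, 36.7% had a larger absolute difference than its main probe set.

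NFKBIA, the IkappaB protein that is resynthesised most rapidly after activation, read 7759 in the vector control and 7804 with GLUT4, a log2 difference of 0.01. Of all genes, 95.6% had a larger absolute difference. Its second probe set lay below the median signal at 19.5 and 23.4, a log2 difference of 0.26. NFKBIE, an IkappaB protein that binds RELA and REL dimers, read 301 and 294, a log2 difference of -0.03 on its 1 probe set.

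Members whose promoter windows held the kappaB consensus thus had main probe sets from 0.01 (NFKBIA) to 0.60 (NFKB2), and RELA, without a match, stood at 0.15 between them. No relation between the matches and the differences was tested over so few genes.

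**Figure D3:**
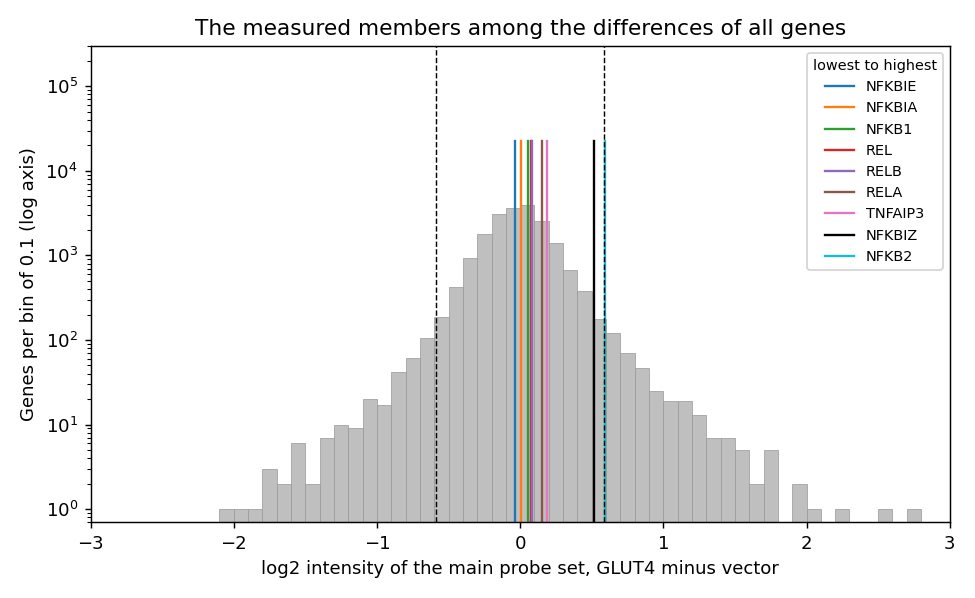
Number of genes (log axis) in bins of 0.1 of the log2 difference, GLUT4 minus vector, for 19775 genes on their main probe sets, with 1 coloured line per measured member and dashed lines at 1.5-fold. Of the members, 7 lie between -0.03 and 0.18 at the centre of the distribution, and NFKBIZ and NFKB2 lie on its upper flank at 0.52 and 0.60.

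The other genes of the pathway were taken from 6 lists by role. Of 107 genes listed, 97 were measured, with 13 more than 1.5-fold higher with GLUT4, 5 more than 1.5-fold lower and 79 within 1.5-fold, and a median log2 difference of -0.04. Among all 19775 genes, 1.84% were higher and 1.54% lower, 10322 were below 0, and the median was -0.015. Of the 13 higher genes, 9 were targets, 2 ligands, 1 a receptor and 1 an adaptor. A count of 1 or 2 in a list rests on those genes alone and does not describe the role.

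Of 8 ligands measured, 2 were more than 1.5-fold higher and none lower, with a median of -0.01. TNF, a cytokine that is a strong activator of the classical pathway, read 27.5 and 72.7, a log2 difference of 1.40, and 0.815 with the offset of 32. IL18, an epithelial cytokine of the interleukin-1 family, read 1442 and 2238, a log2 difference of 0.63. IL1B, another activator of the pathway, was bright and nearly equal at 12482 and 12657. Of 15 receptors, 1 was higher and none lower, with a median of -0.08. This was IL1R1, the signalling receptor of interleukin-1, at 132 and 239, a log2 difference of 0.86. Its dimmer probe set read 28.4 and 27.6, a log2 difference of -0.04, and the mean over both was 0.41, within 1.5-fold. IL1RAP, the coreceptor of IL1R1, read 377 and 527 on the brighter of its probe sets and 180 and 230 on the other, log2 differences of 0.48 and 0.36. TNFRSF12A, a receptor of the TNF family, read 3390 and 2838, a log2 difference of -0.26.

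Of 17 adaptors and ubiquitin ligases measured, 1 was higher and 1 lower, with a median of -0.03. TRAF5, an adaptor of TNF family receptors, read 117 and 186, a log2 difference of 0.67, and IRAK2, a kinase-like adaptor of interleukin-1 and Toll-like receptors, 672 and 418, a log2 difference of -0.69. Over all their probe sets these averaged 0.26 and -0.37, both within 1.5-fold, and TRAF5 came to 0.55 with the offset, also within it. BCL10, an adaptor that links antigen receptors to the kinases, was within 1.5-fold on its main probe set at 1873 and 2092, a log2 difference of 0.16. Its dimmer probe sets read 284 and 866, and 184 and 292, both more than 1.5-fold higher, and its mean over all 3 was 0.81, past 1.5-fold. IRAK1, a kinase of the interleukin-1 and Toll-like receptor complexes, read 4511 and 3809, a log2 difference of -0.24. Of 12 kinases and their partners, none was higher and 1 was lower, with 9 below 0 and a median of -0.15. That one was MAP3K8, which sits in a complex with the NFKB1 precursor, at 49.2 and 28.5, a log2 difference of -0.79, with -0.30 on its dimmer probe set. With the offset it came to -0.42, within 1.5-fold. The subunits of the IkappaB kinase complex were within 1.5-fold on every probe set, with main log2 differences of -0.18 for CHUK, -0.12 for IKBKG and 0.00 for IKBKB. MAP3K14, the kinase that triggers cutting of the NFKB2 precursor, read 80.7 and 57.4, a log2 difference of -0.49. TAB3, which links the upstream kinase MAP3K7 to ubiquitin chains, read 1706 and 1475, a log2 difference of -0.21.

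Of 15 further inhibitors and negative regulators, none was past 1.5-fold in either direction, with 10 below 0 and a median of -0.08. Among all 19775 genes, 10322 were below 0. TRAF3, which holds MAP3K14 at low levels, was closest to the threshold at 1108 and 742, a log2 difference of -0.58, with -0.05 on its dimmer probe set, and it passed 1.5-fold at -0.60 after quantile normalization or loess. TNIP1, a partner of TNFAIP3, read 2557 and 2274, a log2 difference of -0.17. The remaining IkappaB proteins were within 1.5-fold on every probe set, with NFKBIB at -0.06 and NFKBID, a nuclear one, at 0.31 from 46.3 to 57.4.

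The target genes, a list chosen with earlier results of these data known, held genes past 1.5-fold in both directions. Of 30 measured, 9 were higher and 3 lower, with a median of 0.11, where 1.84% and 1.54% of all genes were. Their difference from the subunits and inhibitors was not tested. The highest were the chemokine CXCL3 at 2.72 on the log2 scale and BCL2A1, an inhibitor of cell death, at 2.25 (0.96 with the offset). The 1 probe set of BCL2A1 read 10.6 and 50.7, with a mean below the median signal. PTGS2, the inducible cyclooxygenase, and the pattern recognition protein PTX3 followed, both at 1.49. The remaining higher targets were CXCL8, CXCL2, IL6, CD83 and CXCL1. On their main probe sets CXCL8 read 4488 and 8309 (0.89), CXCL2 5864 and 9866 (0.75), and IL6 2239 and 3776 (0.75). CD83 read 253 and 414 (0.71) and CXCL1 2020 and 3172 (0.65). The 3 lower ones were CCL5, a chemokine for T cells, from 117 to 55.4 (-1.08), PLAU, the urokinase plasminogen activator, from 1327 to 663, and the matrix protease MMP9 from 187 to 122 (-0.62, and -0.51 with the offset, within 1.5-fold). All 3 CCL5 probe sets and both PLAU probe sets were more than 1.5-fold lower. The chemokine CCL20 was bright and equal on both arrays at 14678 and 14729. Of the targets with a promoter window, 17 of 27 (63.0%) held the kappaB consensus. Of 16 measured targets with a match, 6 were higher and none lower, with a median of 0.28, and of 9 without, 3 were higher and 1 lower, with a median of -0.21. The other 5 had no window in the table, and of these none was higher and 2 were lower, with a median of -0.20. These groups were not tested against each other, and the lower counts rest on 3 genes in all.

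**Figure D4:**
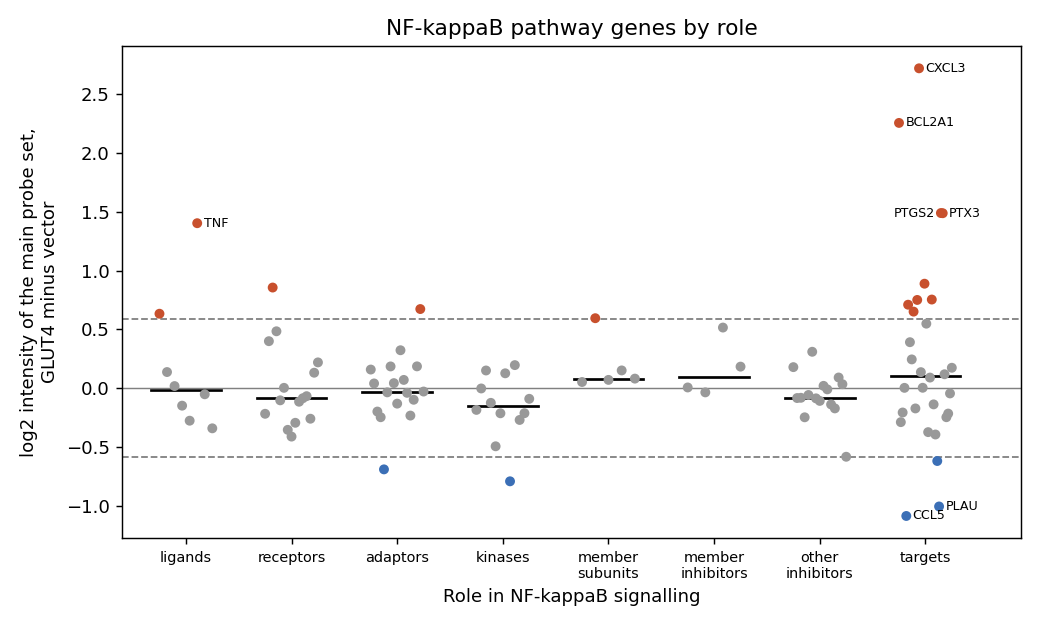
Log2 difference, GLUT4 minus vector, on the main probe set of each pathway gene, by role, with bars at the median of each list, dashed lines at 1.5-fold, and colour for genes past them. The largest differences, from -1.08 to 2.72, are those of the targets, and the measured member subunits and inhibitors lie between -0.03 and 0.60.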

How the data were processed

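Total RNA of 1 vector and 1 GLUT4 FaDu culture was labelled with a 3′ IVT kit and hybridised to Affymetrix arrays. The intensities that the authors deposited are linear and were already normalized between the arrays. The methods name GeneSpring and log2 values, the submitters' notes MAS5 with no version, and their combination is not stated in the sources read. Detection calls were not used, so whether dim probe sets held any signal was not checked. With 1 array per group, the number of arrays limits the precision.

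Here log2 was taken of intensities floored at 1, and differences are GLUT4 minus vector. Of 54675 probe sets, 41097 named 1 gene in the platform annotation, 1801 several and 11777 were unnamed here. Symbols were updated through RefSeq of GRCh38.p14. A gene was represented by its brightest probe set by mean log2 intensity. The members and lists were chosen with earlier results of these data known. From each list the rule named up to 6 genes past 1.5-fold and the brightest. IL1RAP, BCL10, CHUK, IKBKG, IKBKB, MAP3K14, TRAF3, NFKBIB, NFKBID and MMP9 were chosen after their values were seen. The same holds for CXCL8, CXCL2, IL6, CD83 and CXCL1. The remaining 10 listed pathway genes were not analysed here. Alternatives were equal array medians, quantile normalization, loess (fraction 0.3), an offset of 32, averaged probe sets, no x_at or s_at probe sets and a filter at the median signal. The calculations were tested on simulated data. They ran in Python 3.11.15, numpy 2.4.6, pandas 2.3.3, statsmodels 0.14.6 and matplotlib 3.10.9.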

Additional observations from a re-analysis of the deposited data

How the results depend on the processing

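The count of members past 1.5-fold, 1 on the main probe sets, came to 0 with the offset of 32, with averaged probe sets and without x_at and s_at probe sets. That of member probe sets, 2, came to 1 with the offset and 0 without x_at and s_at probe sets, which leaves no probe set for RELA, NFKBIZ or TNFAIP3. NFKB2 came to 0.21 when its probe sets were averaged and turned to -0.14 without x_at and s_at probe sets, where a dimmer probe set represents it. NFKBIA came to 0.26 there on a dim probe set. The pathway genes lower past 1.5-fold, 5 in all, were 3 with the offset, 3 with averaged probe sets and 2 without x_at and s_at probe sets. CXCL2, a target higher at 0.75, came to 0.37 when averaged and 0.26 without such probe sets. Its main probe set read 5864 and 9866, and its dimmer ones 39.6 and 47.3, and 20.8 and 22.5. The other 83 values of the members and pathway totals stayed within 0.20 on the log2 scale, or within 1.5 times for counts, of those reported. Equal array medians, quantile normalization and loess changed neither member count past 1.5-fold, whereas NFKBIA, at 0.01, came to -0.002 after quantile normalization and -0.01 after loess, so that 2 members were then below 0. Depth is not defined for arrays, and 3 member probe sets lay below the median signal.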
